A study of Mus musculus with 8 samples.

Results

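The genes described here code for proteins that capture, carry and store lipid: lipoprotein lipase (Lpl), the scavenger receptors Cd36, Msr1 and Olr1, the fatty acid binding proteins Fabp3, Fabp4 and Fabp5, the droplet coat proteins Plin2 and Plin3, and the very low density lipoprotein receptor Vldlr. They were taken by gene symbol, and all 10 were among the 19938 genes measured. Where a gene had more than 1 probe set, the one with the highest mean over the 8 arrays stood for it. The cells were microglia, which are the macrophages that live in brain tissue, sorted as CD11b high and CD45 intermediate from perfused whole brains after myelin had been removed on Percoll. The mice were of the Swiss Webster strain, 17 weeks old and labelled female. There were 4 arrays from mice labelled MFP2 knockout and 4 from control mice labelled wild type. MFP2 is the product of Hsd17b4 and a peroxisomal enzyme needed to break down very long and branched fatty acids. The labels do not say how the knockout allele was made or in which cells it is active, nor whether controls were littermates or each array stood for a separate animal, so the p-values reflect only the spread among these arrays. The comparison asks how lipid handling genes differ in microglia of animals labelled as knockouts of this enzyme.

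Lipid reaches a macrophage by several routes. Lipoprotein lipase releases fatty acids from triglyceride-rich particles, receptors such as Vldlr take up whole particles, and scavenger receptors bind modified lipoproteins, cell debris and, in the case of Cd36, long-chain fatty acids. Inside the cell, fatty acid binding proteins carry the released fatty acids between membranes, enzymes and the nucleus, and the surplus is esterified and kept in droplets coated with perilipins. Microglia that clear myelin meet large amounts of lipid, and several of these genes are commonly used as signs of lipid-laden or activated macrophages.

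The arrays differed in ways that bear on these genes. The targeted gene Hsd17b4 had log2 values of 7.82 to 9.09 in controls and 4.76 to 7.20 in knockouts, with knockout 2 the highest knockout array and the groups apart. On the first principal component of all genes control 3 lay nearest the knockouts, at -9.62 against -24.7 to -23.2 for the other controls, and knockout 1 and knockout 2 nearest the controls. Control 1 did not match its female label, with Xist at 6.80 (10.56 or more on the other arrays) and the Y-linked Eif2s3y at 8.14 (2.99 or less). Array medians lay between 6.19 and 6.29, and levels are not ranked between genes, because probes differ in their response. The array median and the lowest 25% of genes serve only as rough marks of dim signal. Of 7 measured genes that define microglia all lay above the array medians, and 6 were lower in knockouts.

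Of the 10 genes 5 rose in knockout microglia. Lpl, Fabp5 and Cd36 rose 5.07- to 5.94-fold, Msr1 2.74-fold and Fabp3 2.19-fold. The droplet coat genes Plin2 and Plin3 and the receptor Olr1 had higher means that did not pass the test, and Fabp4 and Vldlr had nearly equal means in the groups. In all, 5 of the 10 were higher and 0 lower (limma, adjusted p under 0.05), where 9.55% of all genes tested were called, 5.38% higher and 4.17% lower. At an unadjusted p under 0.05 there were 8 higher and 0 lower, against 10.3% higher and 10.7% lower of all genes. The median log2 change of the 10 was 0.79, against -0.02 over all genes. The genes were chosen with earlier results of these data known, so these contrasts with all genes may reflect that choice. For 6 genes every knockout value lay above every control value, as it did for 7.09% of all genes. By size of increase Lpl stood at place 8, Fabp5 at place 11 and Cd36 at place 15 among all genes.

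**Figure D1:**
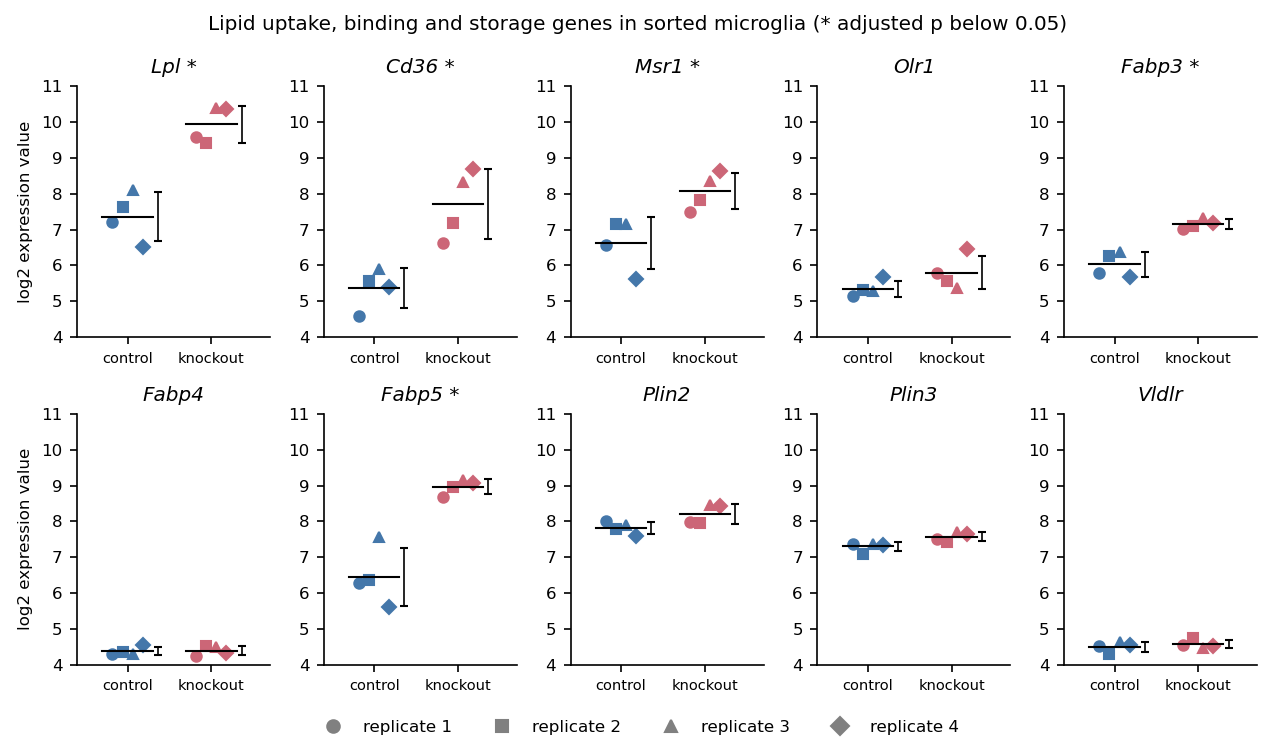
Log2 expression value of the 10 genes (vertical axis) in each control and knockout array (points, with a symbol for each replicate number), with the group mean (line) and SD (bar). Lpl, Cd36, Msr1, Fabp3 and Fabp5 are apart between the groups, Plin3 is apart by only 0.05, and Fabp4, Olr1, Plin2 and Vldlr overlap.

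Lpl codes for the secreted lipase that splits the triglycerides of lipoproteins. On the log2 scale it was at 7.20, 7.63, 8.10 and 6.51 in control 1 to control 4 and at 9.57, 9.41, 10.37 and 10.36 in knockout 1 to knockout 4. The groups were separated by 1.32, with control 3 the highest control, and knockouts 3 and 4 above knockouts 1 and 2. The log2 change, knockout minus control, was 2.57 ± 0.31 (SE, n = 4 and 4), or 5.94-fold (limma adjusted p = 0.000441). In a bulk RNA sample a change in the share of cells that express a gene and a change in RNA per cell cannot be told apart, a limit shared by every gene here.

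Vldlr, a receptor of the low density lipoprotein receptor family that binds particles held by lipoprotein lipase, did not follow Lpl. It was at 4.53, 4.30, 4.63 and 4.55 in control 1 to control 4 and at 4.56, 4.75, 4.47 and 4.54 in knockout 1 to knockout 4. The groups overlapped throughout, and the change of 0.08 had a 95% confidence interval of -0.14 to 0.30 (limma adjusted p = 0.739). Its mean was in the lowest 25% of genes, where RMA values compress differences. The changes of Lpl and Vldlr differed by 2.49 ± 0.46 (SE) when taken within each array, and the groups did not overlap in that difference.

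Among the scavenger receptors the increase was unequal. Cd36, which takes up long-chain fatty acids and oxidised lipoproteins, was at 4.59, 5.57, 5.90 and 5.40 in control 1 to control 4 and at 6.63, 7.17, 8.33 and 8.69 in knockout 1 to knockout 4. All knockouts were above all controls, but the knockout arrays spread over 2 log2 units, with knockouts 3 and 4 highest (SD 0.97, against 0.56 in controls). Every control value lay below the array medians of 6.19 to 6.29, a rough mark of dim signal, where RMA values compress differences. The change was 2.34 ± 0.40 (SE), or 5.07-fold (limma adjusted p = 0.00298).

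Msr1, the class A receptor for modified lipoproteins and debris, was at 6.56, 7.16, 7.15 and 5.62 in control 1 to control 4 and at 7.50, 7.82, 8.35 and 8.63 in knockout 1 to knockout 4. The groups were apart by 0.34, and control 4 stood lowest. The change was 1.45 ± 0.32 (SE), or 2.74-fold (limma adjusted p = 0.0125). The call was lost when the prior for the spread was made robust and let follow intensity (limma adjusted p = 0.0793), where that of Cd36 was kept (0.0449), and the change was 1.12 without control 4.

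Olr1, a lectin-type receptor for oxidised low density lipoprotein, was at 5.14, 5.32, 5.28 and 5.67 in control 1 to control 4 and at 5.80, 5.58, 5.38 and 6.45 in knockout 1 to knockout 4. The groups overlapped, with knockout 4 alone far above the controls. The change of 0.45 ± 0.20 (SE) did not pass (limma adjusted p = 0.210), and it was 0.23 without knockout 4. Its 95% confidence interval, unadjusted for the number of genes, was 0.02 to 0.88.

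The 3 fatty acid binding proteins, small cytosolic carriers of long-chain fatty acids, behaved differently from each other. Fabp5, the epidermal type found in many macrophages, was at 6.29, 6.37, 7.56 and 5.62 in control 1 to control 4 and at 8.67, 8.95, 9.15 and 9.08 in knockout 1 to knockout 4. Controls varied widely (SD 0.81), with control 3 highest, while the knockouts lay close together (SD 0.21); the difference in spread was not tested. The change was 2.50 ± 0.30 (SE), or 5.66-fold (limma adjusted p = 0.000447). A further probe set of Fabp5 gave 2.50 ± 0.32. Among the genes described, its number falls nearest that of Fabp4, which like Fabp5 is on chromosome 3. Among the genes described, the probe set used above is numbered nearest that of Msr1, on chromosome 8. That of Crabp1, from the lists of related genes, is much closer in number. Where Crabp1 lies was not looked up. Probe set positions are not given, and which locus each reads was not tested.

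Fabp3, the heart type, was at 5.80, 6.26, 6.37 and 5.67 in control 1 to control 4 and at 7.02, 7.10, 7.33 and 7.18 in knockout 1 to knockout 4. Knockouts were again above all controls, with an SD of 0.13 against 0.34. The change was 1.13 ± 0.15 (SE), or 2.19-fold (limma adjusted p = 0.000682). Its other probe set gave 1.38 ± 0.20. The gene table also lists a pseudogene, Fabp3-ps1, on chromosome 10, while Fabp3 is on chromosome 4. No source used here gives the positions of the probe sets. By number, the other probe set falls between those of Fabp4 on chromosome 3 and Plin2 on chromosome 4. The one used above, and in the pair differences, falls far below both. Its number is almost beside that of Stab2, a listed scavenger receptor whose place was not looked up. The value given for Fabp3 may thus come from another locus than the gene on chromosome 4. Whether it reads the pseudogene was not tested.

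Fabp4, the adipocyte type, which macrophages can also express, was at 4.31, 4.37, 4.32 and 4.55 in control 1 to control 4 and at 4.24, 4.52, 4.50 and 4.34 in knockout 1 to knockout 4. No array stood out. The change of 0.01 had a 95% confidence interval of -0.20 to 0.22 (limma adjusted p = 0.961), it took either sign when single arrays were left out, and the mean was in the lowest 25% of genes. Fabp5 and Fabp4 belong to a cluster in the order Fabp5, Pmp2, Fabp9, Fabp4 and Fabp12 on 1 chromosome. The other cluster genes, all in the lowest 25% by mean as well, code for binding proteins of myelin (Pmp2), the testis (Fabp9) and the related Fabp12, and had changes of 0.25, 0.04 and 0.02 (limma adjusted p = 0.229, 0.887 and 0.946). Of the 5 cluster genes, Fabp5 was the 1 that passed, and both of its probe sets gave a change of 2.50.

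Of the droplet coat genes, Plin2, the perilipin that covers droplets in most cells, was at 8.01, 7.78, 7.89 and 7.60 in control 1 to control 4 and at 7.97, 7.94, 8.45 and 8.43 in knockout 1 to knockout 4. Knockouts 3 and 4 were above all controls, while knockouts 1 and 2 lay among them. The change was 0.38 ± 0.14 (SE) with a 95% confidence interval of 0.08 to 0.68, and did not pass (limma adjusted p = 0.121). Plin3, a perilipin that moves between cytosol and nascent droplets, was at 7.38, 7.10, 7.37 and 7.36 in control 1 to control 4 and at 7.51, 7.43, 7.71 and 7.64 in knockout 1 to knockout 4. Its groups did not overlap, but the lowest knockout was only 0.05 above the highest control. The change of 0.27 ± 0.10 (SE), with an interval of 0.06 to 0.49, did not pass either (limma adjusted p = 0.122). The intervals of these 2 genes leave out 0 because they are not adjusted for the number of genes.

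**Figure D2:**
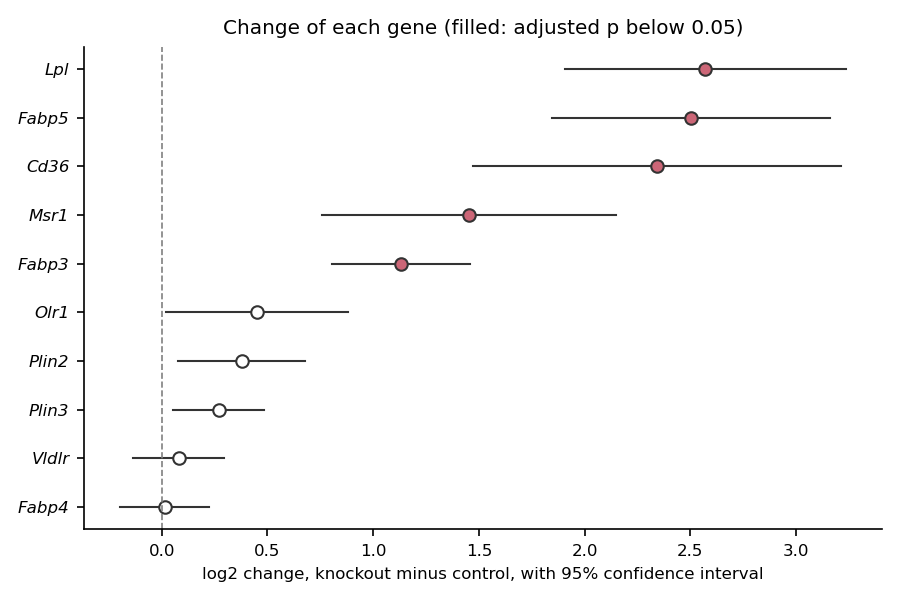
Log2 change of each gene, knockout minus control (horizontal axis), with its 95% confidence interval (line), unadjusted for the number of genes. The 5 filled points, from Fabp3 at 1.13 to Lpl at 2.57, passed an adjusted p of 0.05, and the 5 open points, from Fabp4 at 0.01 to Olr1 at 0.45, did not.

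The windows around 1 start site each of Cd36 and Fabp3, which rose, and of Plin2, which did not pass, are shown so that these genes can be set side by side at the sequence level. They are from RefSeq (GRCm38.p6), cover 250 bases before to 50 after a start site and read 5′ to 3′ along the gene. Cd36 is at chr5:17835847-17836146 on the minus strand, Fabp3 at chr4:130308488-130308787 on the plus strand and Plin2 at chr4:86670010-86670309 on the minus strand. The windows of Cd36 and Plin2 each surround a start site inside the gene's span. The outermost 5′ end of Cd36 is not shown, while that of Plin2 lies within its window, before the start site used. Capitals mark matches on either strand to AGGTCA (the half-site of PPAR, LXR and other nuclear receptors), CACGTG (an E-box) or GGGCGG (a GC box).
Cd36: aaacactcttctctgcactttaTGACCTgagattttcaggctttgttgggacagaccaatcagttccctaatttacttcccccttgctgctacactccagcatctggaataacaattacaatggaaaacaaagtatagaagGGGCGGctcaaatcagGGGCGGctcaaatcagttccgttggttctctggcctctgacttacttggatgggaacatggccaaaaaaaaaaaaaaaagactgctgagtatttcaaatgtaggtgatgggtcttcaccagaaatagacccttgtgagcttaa
Fabp3: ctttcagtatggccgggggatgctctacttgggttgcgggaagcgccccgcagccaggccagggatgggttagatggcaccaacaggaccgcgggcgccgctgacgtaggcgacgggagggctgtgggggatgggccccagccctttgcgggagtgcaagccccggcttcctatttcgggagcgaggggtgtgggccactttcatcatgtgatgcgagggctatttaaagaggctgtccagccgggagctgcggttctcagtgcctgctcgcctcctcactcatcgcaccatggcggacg
Plin2: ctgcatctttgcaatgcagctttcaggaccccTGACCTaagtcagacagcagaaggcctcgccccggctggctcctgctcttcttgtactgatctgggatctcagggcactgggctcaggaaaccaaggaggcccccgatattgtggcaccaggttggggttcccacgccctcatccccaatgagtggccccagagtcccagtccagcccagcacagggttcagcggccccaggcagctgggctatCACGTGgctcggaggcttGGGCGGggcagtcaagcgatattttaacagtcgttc

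Of the 10 genes 6 had such a window, 7 windows in all because Vldlr had 2; Lpl, Msr1, Fabp4 and Fabp5 had none in the table. AGGTCA occurred in the windows of Cd36, Olr1 and Plin2, and in 16.3% of the 32851 windows of all genes. CACGTG occurred in that of Plin2 (7.15% of all windows) and GGGCGG in those of Cd36, Plin2, Plin3 and Vldlr (35.7%). The window of Cd36 held 2 copies of GGGCGG, 109 and 93 bases before the start site. Of the other sequences searched on both strands, CCAAT was found in the windows of Cd36, Olr1, Plin2, Plin3 and Vldlr (37.4% of all) and TGANTCA, the AP-1 site, in that of Olr1 (7.81%). The direct repeat of 2 AGGTCA half-sites with 1 base between them, bound by PPAR (0.0396%), GAGGAAGT, bound by PU.1 (3.20%), and the TATA box TATAAA (13.6%) were in none of the 7. The window of Fabp3 held none of the 8 sequences, and that of Plin2 held 4 of them.

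Whether genes of one family or role changed unequally was tested for 8 pairs on the within-array difference of their centred log2 values, with a two-sided exact permutation test over the 70 regroupings. Fabp5 rose by 1.37 ± 0.28 (SE) more than Fabp3 and by 2.49 ± 0.45 more than Fabp4, and Fabp4 changed by 1.12 ± 0.22 less than Fabp3 (difference -1.12). Cd36 rose by 1.89 ± 0.52 more than Olr1 changed, and Lpl by the 2.49 ± 0.46 over Vldlr given above. In these 5 pairs the groups did not overlap, at an exact p of 0.0286, the smallest that the design allows, and 0.0457 after adjustment over the 8 pairs. That adjusted value rests on the 5 pairs reaching the smallest p together. In the pairs with Fabp4 or Vldlr, that gene was dim and changed by 0.01 or 0.08. Their differences thus nearly repeat the changes of Fabp5 (2.50), Fabp3 (1.13) and Lpl (2.57) alone. As dim signal compresses differences, these pairs cannot decide whether the related genes changed unequally. The adjusted value of Fabp5 over Fabp3 and of Cd36 over Olr1 nevertheless depends on them. The pairs among Fabp3, Fabp4 and Fabp5 share genes, so each difference follows from the others and they are not separate results. The same holds for the pairs among Cd36, Msr1 and Olr1. Cd36 and Msr1 differed by 0.89 ± 0.44 (exact permutation adjusted p = 0.131), Msr1 and Olr1 by 1.00 ± 0.52 (0.114) and Plin2 and Plin3 by 0.11 ± 0.13 (0.457), so that an unequal change was not shown there. Without control 4 the difference of Msr1 over Olr1 was 0.56 and that of Plin2 over Plin3 0.02. With 7 arrays the 5 calls were lost (exact permutation adjusted p = 0.0571 to 0.0914) without any array other than control 4, and that of Cd36 over Olr1 without control 4 as well (0.0762), while the differences kept their direction. Without control 4 the difference of Cd36 over Msr1 passed, at 1.23 (exact permutation adjusted p = 0.0457).

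**Figure D3:**
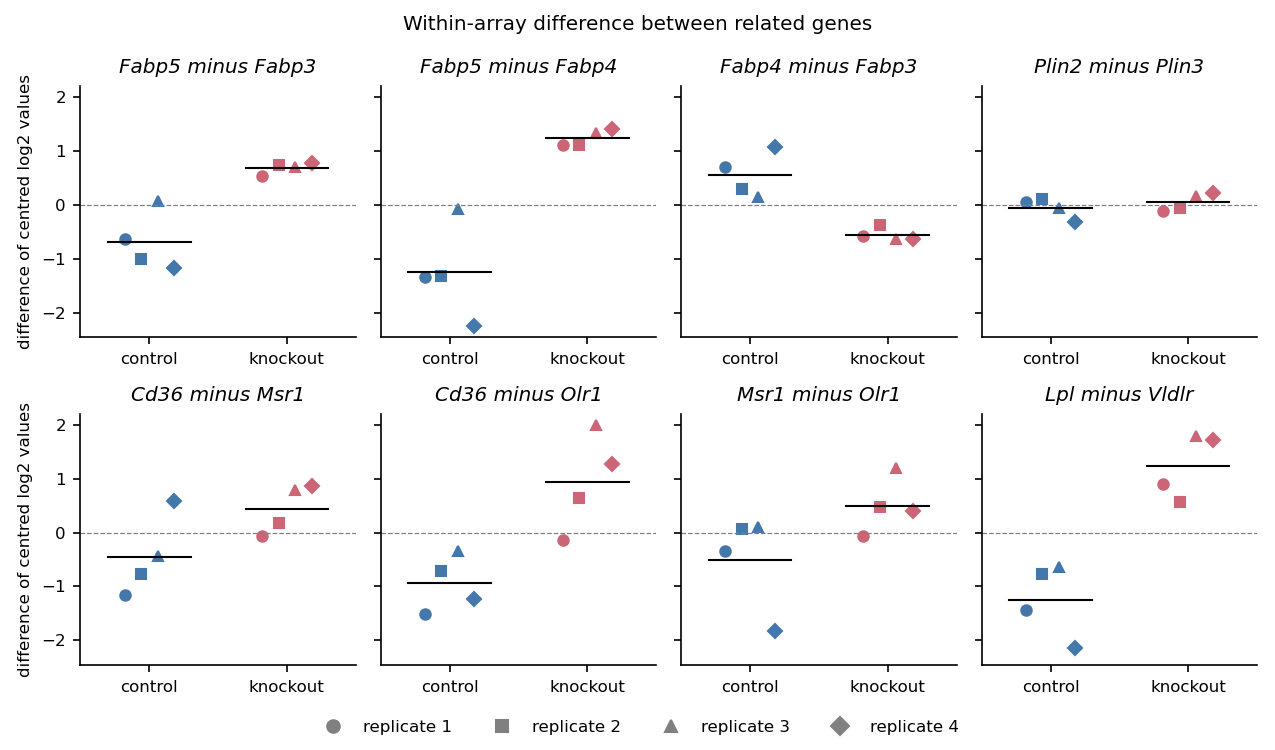
Difference between 2 related genes within each array (vertical axis, each gene centred on its mean over the 8 arrays, log2 units), with a symbol for each replicate number and a line at the group mean. The groups are apart for Fabp5 against Fabp3 and Fabp4, Fabp4 against Fabp3, Cd36 against Olr1 and Lpl against Vldlr, and overlap for the other 3 pairs.

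Within each group the raised genes ranked the arrays alike. Control 3 had the highest control value for Lpl, Cd36, Fabp3 and Fabp5, and control 2 for Msr1. Control 4 had the lowest control value for 4 of the 5, other than Cd36, which was lowest in control 1. Among knockouts the highest value was in knockout 3 for Lpl, Fabp3 and Fabp5 and in knockout 4 for Cd36 and Msr1, and the lowest in knockout 1 for 4 of the 5 and in knockout 2 for Lpl. The same arrays, control 3 and knockouts 1 and 2, lay nearest the other group on the first principal component. Without control 3 and knockout 2 the changes were 2.99 for Lpl, 2.87 for Fabp5, 2.70 for Cd36, 1.71 for Msr1 and 1.27 for Fabp3, and without control 1 as well 3.03, 2.97, 2.40, 1.77 and 1.21. All 5 passed in both settings (limma adjusted p at most 0.0433), and also without control 1 alone. For all 5, control 3 lay above the control mean and knockout 2 below the knockout mean. Leaving out both therefore raises the changes by construction, and passing there adds no support.

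The genes whose profile over the 8 arrays was closest to each raised gene were found by the root mean square difference of centred log2 values. Each profile holds the difference between the groups, so genes with a change of like size are favoured. Shared regulation was not tested. Nearest to Lpl were the ceruloplasmin gene Cp, at 0.19 log2 units, and the hydroxycarboxylic acid receptor Hcar2 (0.27). Nearest to Fabp5 were the receptor tyrosine kinase Axl (0.09) and the integrin Itgax (0.12). Nearest to Fabp3 were the cationic amino acid transporter Slc7a1 (0.08) and the lysosomal glucosidase Gaa (0.12). Cd36 had no neighbour as close, with the Fc receptor Fcgr4 at 0.39 and the VEGF receptor Flt1 at 0.40, and Msr1 had Ifi207 at 0.28 and Cd34 at 0.30.

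Related genes were read from 5 lists, where a share of 5.38% higher and 4.17% lower is the background. Partners of lipoprotein lipase and lipoprotein receptors had 2 higher and 1 lower of 15 measured, with a median change of 0.04. Sorl1, a sorting receptor that binds lipoprotein lipase and apolipoprotein E, rose by 0.99 ± 0.14 (SE), from a mean of 6.76 ± 0.17 (SD) in controls to 7.76 ± 0.29 in knockouts. Lrpap1, the chaperone of lipoprotein receptors, rose by 0.59 ± 0.12, and Mylip, a ubiquitin ligase that sends lipoprotein receptors to degradation, fell by 0.76 ± 0.11. The changes of the remaining 12 did not pass, the 1 with an unadjusted p under 0.05 being Sel1l, which helps lipoprotein lipase mature, at 0.29 (adjusted p = 0.189). Adjusted p ran from 0.000900 for Mylip to 0.00918 for Lrpap1 (limma).

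Further scavenger receptors moved in both directions, with 4 of 15 higher and 1 lower and a median change of 0.04. Cxcl16, a transmembrane chemokine that also binds oxidised lipoprotein, rose by 1.32 ± 0.14 (SE), and Scarb1, the high density lipoprotein receptor, by 0.61 ± 0.11. Stab1, a receptor of tissue-resident macrophages, fell by 1.23 ± 0.16, from 9.07 to 9.66 in controls to 7.87 to 8.41 in knockouts. Colec12 (0.61 ± 0.15) and Marco (0.53 ± 0.14), which completes the count, rose as well, but both calls were lost without control 1, control 2, control 4, knockout 2, knockout 3 or knockout 4 (limma adjusted p = 0.0562 to 0.0997), where 2 were higher. Without control 4, 2 were lower. Cd68, a lysosomal glycoprotein of macrophages (0.21, limma adjusted p = 0.158), and Cd163, the haemoglobin scavenger receptor (-0.57, 0.0718), had an unadjusted p under 0.05 and did not pass.

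Of 20 measured carriers, transporters and activating enzymes of fatty acids 1 was higher and 0 lower, with 4 higher and 2 lower at an unadjusted p under 0.05 (limma) and a median change of -0.01. The 1 was Dbi, the acyl-CoA binding protein, which rose by 0.73 ± 0.15 (SE, adjusted p = 0.0101), and without knockout 1 there were 2. The others with an unadjusted p under 0.05, a threshold that 10.3% of all genes passed upwards and 10.7% downwards, were Fabp7 (0.40), Pmp2 (0.25), Fabp2 (0.21), the acyl-CoA synthetase Acsl4 (-0.26) and the transporter Slc27a5 (-0.21). Their adjusted p was 0.186 to 0.229.

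Genes of droplet formation and coat other than Plin2 and Plin3 had 0 higher and 2 lower of 19, with 2 higher and 4 lower at an unadjusted p under 0.05 (limma; 10.3% and 10.7% of all genes) and a median change of -0.01. Lpin2 and Lpin1, phosphatidate phosphatases that make the diacylglycerol used for triglycerides, fell by 0.61 ± 0.11 (SE) and 0.52 ± 0.11 (adjusted p = 0.00510 and 0.0111). Of those that did not pass, Bscl2, the seipin that shapes new droplets, changed by 0.39 (adjusted p = 0.0710), with every knockout above every control. The triglyceride synthases Dgat2 and Dgat1 differed in sign, at 0.42 and -0.33 (0.107 and 0.208), and G0s2, an inhibitor of droplet lipolysis, was at -0.28 (0.182). The other perilipins Plin1, Plin4 and Plin5 changed by -0.11, -0.18 and -0.01 and did not pass. There was 1 higher gene in place of 0 after cyclic loess or without control 3, knockout 1 or knockout 2.

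Neutral lipid breakdown had 2 higher and 1 lower of 10, with a median change of -0.02. Nceh1, which releases cholesterol from its esters, rose by 1.73 ± 0.17 (SE, limma adjusted p = 0.000212), from 7.33 to 8.11 in controls to 9.18 to 9.67 in knockouts. Lipa, the lysosomal acid lipase, rose by 0.46 ± 0.12 and Mgll, the monoacylglycerol lipase, fell by 0.41 ± 0.12 (limma adjusted p = 0.0249 and 0.0453). With single arrays left out their changes kept their direction, at 0.39 to 0.56 and -0.49 to -0.35, but neither call held throughout. The call of Lipa was lost without control 1, control 3, control 4, knockout 3 or knockout 4 (limma adjusted p = 0.0603 to 0.0755) and that of Mgll without control 2, control 4, knockout 1, knockout 3 or knockout 4 (0.0847 to 0.132), and 2 were lower without control 3. That of Mgll was lost also under all 3 scalings (0.0539 to 0.0772) and with array weights (0.0588). Lipe, the hormone-sensitive lipase, changed by -0.38 with every knockout below every control and did not pass (limma adjusted p = 0.0540). Pnpla2, the main triglyceride lipase of droplets, changed by -0.12 and did not pass.

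**Figure D4:**
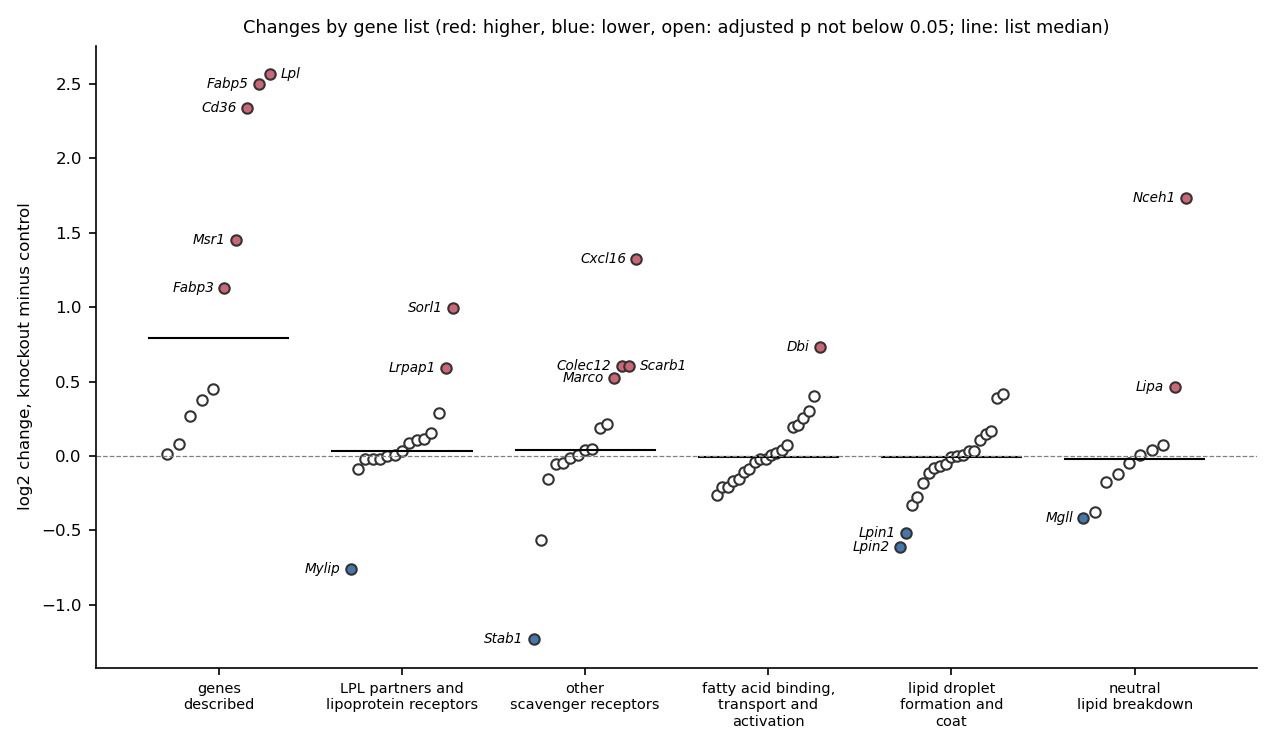
Log2 change, knockout minus control (vertical axis), of the 10 genes described and of the measured members of 5 lists of related genes (points), with the list median (line). The 10 genes have a median of 0.79, while the medians of the 5 lists lie between -0.02 and 0.04, and Cxcl16, Nceh1 and Stab1 are the called genes with changes beyond 1 in those lists. The genes and lists were chosen with earlier results of these data known.

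Some of these genes are also expressed by other cells that a sort could carry along, so their markers were read in the same arrays. Adipocytes are rich in Lpl, Cd36, Fabp4 and Plin2. Of 6 measured adipocyte markers 0 passed in either direction (0 also at an unadjusted p under 0.05, limma), and 5, Adipoq and Lep among them, were below the array median on every array. Their summed linear level was 199 to 244 in controls and 214 to 227 in knockouts. Endothelial cells express Cd36 and Fabp5. Of their 9 measured markers Flt1 rose by 1.99 ± 0.30 (SE), Pecam1 fell by 1.56 ± 0.21, and Cldn5 (-0.10) and Cdh5 (-0.01) did not pass. The summed level was 419 to 562 in controls and 426 to 643 in knockouts, and 6 of the 9 were below the array median throughout.

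The microglia markers Cx3cr1, Olfml3, P2ry12, Sall1, Siglech and Tmem119 fell, and the summed level of the 7 was 24300 to 28200 in controls and 15400 to 18900 in knockouts. Brain-border macrophage markers had 2 of 8 higher and 4 lower (2 and 6 at an unadjusted p under 0.05, limma), with summed levels of 746 to 1150 in controls and 666 to 1050 in knockouts. Of 6 monocyte markers 1 was lower and 0 higher (1 higher at an unadjusted p under 0.05, limma), with sums of 570 to 1040 and 596 to 1330. Astrocyte markers had 1 higher of 7, Gfap by 1.28 ± 0.20 (SE), with 4 higher at an unadjusted p under 0.05 (limma), a median change of 0.26 and sums of 710 to 802 in controls and 779 to 828 in knockouts. Oligodendrocyte markers had 1 higher of 6, Mbp by 0.59 ± 0.10, and 0 lower, with a median change of -0.02. At an unadjusted p under 0.05 (limma) 1 was higher and 1 lower, Mog at -0.24. Their sums were 545 to 615 in controls and 622 to 692 in knockouts. Neuron markers had 0 of 7 in either direction (1 higher at an unadjusted p under 0.05, limma), with sums of 283 to 318 and 307 to 342. The part of these cells in the changes of the lipid genes was not tested.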

How the data were processed

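RNA of the sorted microglia was amplified and hybridised to Affymetrix gene arrays, per the labels' protocols. The authors deposited log2 values of each probe set, which per the submitters' processing notes come from RMA. That the scale is log2 was read from its range, 2.04 to 13.99. No software version or chip library is named in the labels. RMA equalises arrays, which hides a common shift of all genes, and compresses the changes of dim genes. Of 28874 probe sets, 21789 had 1 gene symbol in the platform annotation, which gave 19938 genes with the brightest probe set kept for each. The 8 arrays allow limited precision.

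Knockout was compared with control (4 and 4) by limma 3.58.1 in R 4.3.3 (lmFit, eBayes, two-sided, no covariate), with p-values adjusted by Benjamini-Hochberg across the 19938 genes and calls made under 0.05. "Rose" and "fell" are used of genes that passed, means carry their SD and changes their SE. Pairs of genes were tested as stated beside them. The genes and lists were chosen with earlier results of these data known. Genes were named by rule: the 10 genes, Hsd17b4, up to 4 called members of each list, cell type markers, the Fabp cluster, and the 2 genes nearest in profile to each called gene, leaving out predicted genes. Listed genes with an unadjusted p under 0.05, Pnpla2, the other perilipins, Xist and Eif2s3y were chosen after their values were seen. Listed genes that were not measured are not analysed here. The method was tested on simulated data. Alternatives were a filter on dim genes, 3 scalings, the mean of probe sets, a robust prior that follows intensity, weights per array, a block for the replicate number, each array left out and a stricter threshold; settings without control 3 and knockout 2, and without control 1 as well, were added after the data were seen. The plots used matplotlib 3.10.9 under Python 3.11.15.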

Additional observations from a re-analysis of the deposited data

Results flagged for a closer look

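Plin3 in control 2 stood apart from the other controls. Its log2 value was 7.10, against 7.36 for the nearest control array, a gap of 0.907 of the group's range, which is past the limit set for groups of 4. Without control 2 the change of Plin3 was 0.20 (limma adjusted p = 0.252). Of 138 groups of 4 values, both groups of 69 named genes, 7 passed the limit, and chance gives about 1 in 20. The others were all in controls: control 3 for Flt1 (6.53, nearest 5.44) and Plin4 (6.68, nearest 6.37), control 4 for Cd163 (5.39, nearest 6.15) and Pmp2 (3.91, nearest 3.58), and control 1 for Xist (6.80, nearest 10.82) and Eif2s3y (8.14, nearest 2.99).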

How the results depend on the processing

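Of the 5 raised genes, Lpl, Cd36, Fabp3 and Fabp5 passed in all 19 alternatives, with changes of 2.29 to 3.03, 2.01 to 2.70, 1.01 to 1.27 and 2.22 to 2.97. Among the alternatives, leaving out control 3 and knockout 2 raises the changes of these genes by construction. Msr1, at 1.12 to 1.77, was lost with the robust prior (1.45, limma adjusted p = 0.0793) and at an adjusted p under 0.01 (1.45, 0.0125). Olr1, Plin2, Plin3 and Vldlr kept a positive change and passed in none. Fabp4 changed sign without control 1 (-0.01), control 3 (-0.01), knockout 2 (-0.0245) or knockout 3 (-0.02), with a range of -0.0245 to 0.0682 over single arrays left out, without control 3 and knockout 2 (-0.0479) and without control 1 as well (-0.0959).

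At an adjusted p under 0.01, 567 genes were higher and 358 lower, as were 2 scavenger receptors higher, 0 fatty acid carriers higher, 1 droplet gene lower, and 1 breakdown gene higher and 0 lower. Without control 1, control 3 and knockout 2 these were 649 and 494 genes, 1 higher lipoprotein receptor or partner, 2 higher scavenger receptors, 0 higher carriers and 1 higher breakdown gene. Without control 3 and knockout 2, and after cyclic loess, 1 droplet gene was higher. Lower breakdown genes numbered 2 without dim genes and 0 with median centring. With single arrays left out, lower genes ranged from 507 to 960 (544, 517 and 507 without control 1, control 2 and knockout 3). The scavenger receptors ranged from 2 to 4 higher and 1 to 2 lower, carriers from 1 to 2 higher, droplet genes from 0 to 1 higher, and breakdown genes from 1 to 2 higher and 0 to 2 lower.

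For the pairs, single arrays left out gave differences of 1.21 to 1.62 for Fabp5 over Fabp3, 2.15 to 2.88 for Fabp5 over Fabp4, -1.26 to -0.95 for Fabp4 over Fabp3, 0.65 to 1.23 for Cd36 over Msr1, 1.54 to 2.25 for Cd36 over Olr1, 0.56 to 1.20 for Msr1 over Olr1, 0.02 to 0.16 for Plin2 over Plin3 and 2.19 to 2.72 for Lpl over Vldlr. Without control 3 and knockout 2 the 5 called differences were 1.60, 2.92, -1.32, 2.19 and 2.92 in the order Fabp5 over Fabp3, Fabp5 over Fabp4, Fabp4 over Fabp3, Cd36 over Olr1 and Lpl over Vldlr (exact permutation adjusted p = 0.160 each), and without control 1 as well 1.76, 3.07, -1.31, 2.01 and 2.93 (up to 0.320). With those 6 or 5 arrays the exact p cannot go below 0.1. With the replicate number as a block, which the labels do not say marks shared animals, the differences stay 1.37, 2.49, -1.12, 1.89 and 2.49, with an exact p over 4 pairs that cannot go below 0.125 (adjusted p = 0.143). Same-numbered arrays correlated in their deviations at 0.16, -0.06, 0.01 and 0.01, and did not all match their own number best. In limma with the block 1029 genes were higher and 826 lower, 1 breakdown gene was higher, and Lipa (adjusted p = 0.0514) and Mgll (0.0545) were lost. With the block, array weights, quantile scaling or cyclic loess the 1 lower breakdown gene was no longer Mgll.

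Dim signal limits Fabp4, Vldlr, Pmp2, Fabp9 and Fabp12, which the filter on dim genes removed.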
